A study of Homo sapiens with 4 samples.

Results

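MALAT1 and NEAT1 are a pair of neighbouring long noncoding RNA (lncRNA) genes on human chromosome 11, described here through every row of the deposited lncRNA table that carries either name. The table gave 30 isoform rows to MALAT1 and 19 to NEAT1, 49 of 104786 rows in all, and the 2 genes stood among 46902 named lncRNA genes. All rows of either name were taken, whatever their values, but the 2 genes were chosen with earlier results of these data known. The study measured lncRNAs by strand-specific RNA sequencing in MDA-MB-231-P3, a subline of MDA-MB-231 obtained through repeated tail vein injection into mice and recovery of cells grown in the lung, and in MDA-MB-231 itself, a human breast cancer line of the triple-negative type. Each line had 2 libraries and 4 were measured in all. The labels name no other treatment, do not state whether the subline is a single clone, and give no separate culture for each library. The p-values therefore cover library-to-library spread, which may be purely technical.

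MALAT1 and NEAT1 RNAs both stay in the nucleus. MALAT1 is an abundant RNA of nuclear speckles, the bodies that store splicing factors, and is widely studied in metastasis of lung and breast tumours. NEAT1 is made as a short polyadenylated form and as a long form that is the scaffold of paraspeckles, nuclear bodies that hold RNA-binding proteins, and its transcription is known to respond to p53 and to hypoxia. The main MALAT1 transcript and the long NEAT1 form share an unusual end: RNase P cuts the primary transcript next to a small tRNA-like RNA, and the remaining RNA ends in an A stretch that is encoded in the genome and folds into a triple helix.

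In the GENCODE release 44 annotation on hg19, the build the submitters used, NEAT1 spans 65190245 to 65213011 of chromosome 11 (plus strand), and MALAT1 spans 65265111 to 65275544 on the same strand, with 52099 bases between them. The annotation gives MALAT1 66 transcripts of 282 to 10434 bases and NEAT1 9 transcripts of 512 to 22743 bases. The deposited isoform numbers, such as MALAT1:33, are not those of this annotation. No row was therefore assigned to a transcript, to a start site, or to the short or long form of NEAT1. The antisense gene TALAM1 covers 65266783 to 65274903 on the minus strand, inside MALAT1. The libraries marked the strand, but whether the authors' quantification used it is not given in the sources used here, so MALAT1 values may hold reads from TALAM1.

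The genome sequence of the shared end is shown because the main MALAT1 transcript and long NEAT1 form end there without an added tail. The labels describe the libraries as made from the mRNA fraction. The last 11 bases of the annotated NEAT1 span occur once in NEAT1 and at 2 places in MALAT1. The later of those places stands next to the tRNA-like RNA. Of the 66 annotated MALAT1 transcripts, 1 ends within 50 bases of the end of that later place. Of the 9 annotated NEAT1 transcripts, 1 ends within 50 bases of the NEAT1 end. Capitals mark the 11 shared bases, and the hg19 plus strand is printed from chr11:65273517-65273647 for MALAT1 and chr11:65212941-65213071 for NEAT1.
MALAT1 end: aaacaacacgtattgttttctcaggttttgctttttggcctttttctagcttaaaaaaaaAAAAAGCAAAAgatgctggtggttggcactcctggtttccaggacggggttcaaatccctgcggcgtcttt
NEAT1 end: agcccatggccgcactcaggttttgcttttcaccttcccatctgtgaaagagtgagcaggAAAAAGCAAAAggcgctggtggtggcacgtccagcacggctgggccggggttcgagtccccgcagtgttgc
In MALAT1 more A bases precede the capitals. A T-rich stretch, the partner strand of the triple helix in the known structure, lies before the capitals in both. Whether these ends were captured differently in the 2 lines was not tested.

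The MALAT1 sum was higher in both MDA-MB-231-P3 libraries than in either library of the parent, and it did not pass the test. MALAT1 had 1982 and 1616 FPKM in MDA-MB-231-P3 and 717 and 952 FPKM in MDA-MB-231. FPKM counts fragments per kilobase of transcript, scaled to the mapped fragments of the library, and the sum runs over all rows of a name. The lowest subline library stood well above the highest parental one, and libraries of a line differed by 1.23-fold within MDA-MB-231-P3 and by 1.33-fold within MDA-MB-231. The means were 1799 ± 258 FPKM and 834 ± 166 FPKM (SD, n = 2 each), a 2.16-fold higher level in the subline. On the scale of log2(FPKM + 0.5) the difference was 1.11 (SE 0.32, limma adjusted p = 0.282), with a 95% interval of 0.27 to 1.96 that is not adjusted for the number of genes tested. In these bulk libraries, a change in every cell and a change in some of the cells cannot be told apart.

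For NEAT1 the lines overlapped. NEAT1 had 171 and 116 FPKM in MDA-MB-231-P3 and 141 and 99.8 FPKM in MDA-MB-231, so that the lower subline library lay between the 2 parental ones. The means were 143 ± 39.3 FPKM and 120 ± 28.9 FPKM (SD, n = 2 each), 1.19 times as high in the subline. The log2 difference was 0.25 (SE 0.35, limma adjusted p = 0.743), with an interval of -0.70 to 1.20, which leaves room for a 2.29-fold higher level and for a level 0.615 times that of the parent. Without MDA-MB-231-P3 replicate 1 the NEAT1 difference was -0.035, and without MDA-MB-231-P3 replicate 2 it was 0.53.

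**Figure D1:**
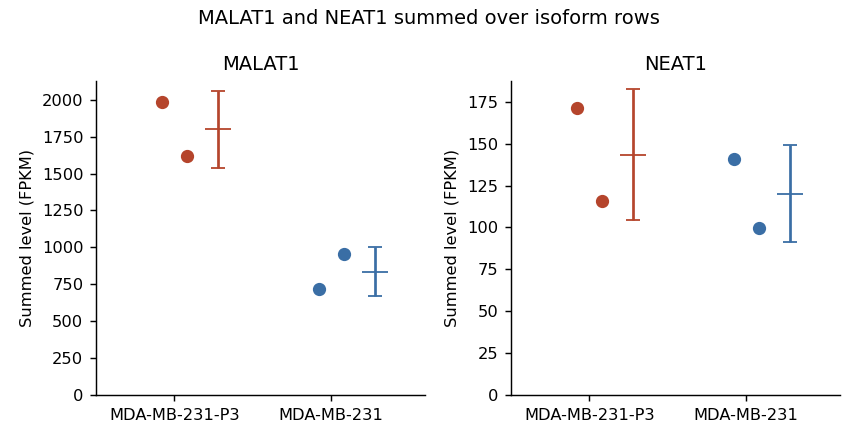
Summed level of MALAT1 (left) and NEAT1 (right) in FPKM, 1 point per library, with MDA-MB-231-P3 left of MDA-MB-231 and the mean ± SD (n = 2) drawn beside each line. Both MDA-MB-231-P3 points of MALAT1, at 1982 and 1616 FPKM, lie above both parental points, whereas the NEAT1 points of the lines overlap.

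Across the whole table, limma called 4 of 6444 summed genes, or 0.0621%, and neither MALAT1 nor NEAT1 was among them. None was called when any single library was left out, and 978 genes (15.2%) had an unadjusted p under 0.05, MALAT1 among them. Both subline libraries lay above both parental ones, as for MALAT1, in 28.9% of tested genes. A larger positive difference than that of MALAT1 was found for 722 of the 6444 genes, and a larger one than that of NEAT1 for 2679. Among the 104 genes with a mean of at least 100 FPKM, a level chosen after the values were seen, 2 had a larger positive difference than MALAT1 and 14 a larger one than NEAT1. MALAT1 ranked 21st and 27th by summed level in the MDA-MB-231-P3 libraries and 39th in both MDA-MB-231 libraries. NEAT1 ranked 74th and 99th in the subline and 89th and 115th in the parent.

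The scale of the libraries bears on both differences. The FPKM of all rows summed to 351135 and 372689 in the subline and to 460282 and 500086 in the parent. MALAT1 held 0.564% and 0.434% of that sum in MDA-MB-231-P3 and 0.156% and 0.190% in MDA-MB-231, and NEAT1 held 0.0488% and 0.0310% in the subline and 0.0306% and 0.0200% in the parent. Leaving the 10 most abundant isoforms of each library out of the sum, the MALAT1 share was 1.84% and 1.35% in the subline and 0.571% and 0.589% in the parent. Rescaling every library to a common sum moved the median log2 difference of all genes to 0.38 from 0.09 as deposited, and quantile normalization moved it to -0.03. Relative to the median of all genes, the MALAT1 difference was 1.02 as deposited, 1.14 with a common sum and 1.63 after quantile normalization, and that of NEAT1 was 0.16, 0.27 and 0.43 in the same order. Neither gene passed under any of these scalings (limma adjusted p of 0.175 or more with a common sum and 0.264 or more after quantile normalization).

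**Figure D2:**
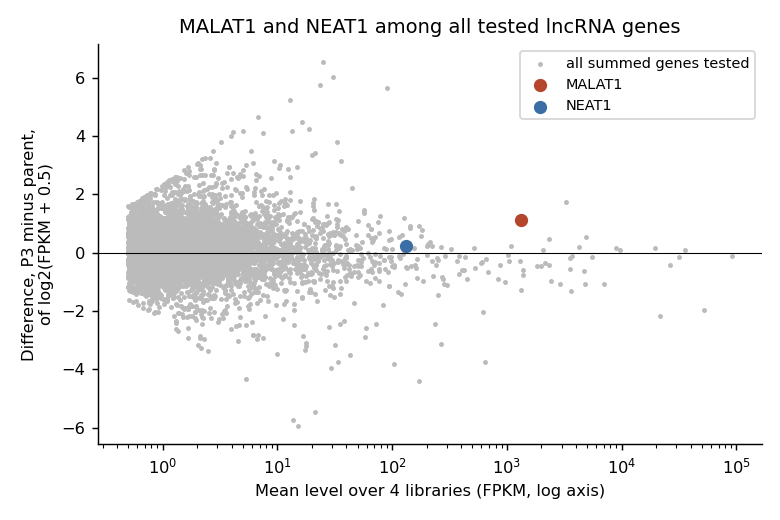
Difference between the lines, MDA-MB-231-P3 minus MDA-MB-231, of log2(FPKM + 0.5) against the mean summed level over 4 libraries in FPKM on a log axis, 1 point per tested lncRNA gene. MALAT1, at a difference of 1.11, lies above most genes of similar level, and NEAT1, at 0.25, lies among them.

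The ratio of MALAT1 to NEAT1 is unaffected by a scaling factor per library. It was 11.6 and 13.97 in MDA-MB-231-P3 and 5.10 and 9.54 in MDA-MB-231. Both subline ratios exceeded both parental ones, by 0.87 on the log2 scale on average (two-sided exact permutation p = 0.33, the smallest that 2 against 2 libraries can give). Taken from the isoform of highest mean of each gene, MALAT1:33 and NEAT1:17, the log2 ratio differed by -0.17, the other way.

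Of the 30 MALAT1 rows, 13 had a mean of at least 0.5 FPKM and were tested, and 17 lay below that level. The 17 low rows reached at most 1.92 FPKM in any library and held at most 0.326% of the MALAT1 sum, and 8 of them were under 0.01 FPKM in all 4 libraries. None of the 30 was at exactly 0. At the isoform level limma called 0 of 8432 rows (0%), including 0 of the 13 MALAT1 rows, and 4 of the 13 had an unadjusted p under 0.05, against 13.3% of all rows. Of these 4, 3 were higher in the subline, where 7.87% of all rows were, and 1 was lower, where 5.46% were. Differences of the 13 rows ran from -3.37 to 5.74 with a median of 1.08, 10 positive and 3 negative, beside a median of 0.09 over all rows tested. Both subline libraries lay above both parental ones for 6 of the 13 rows, where 27.3% of all rows did so, and below them for 2, where 20.7% did. Among those above, MALAT1:32, MALAT1:36 and MALAT1:29 had parental means under 0.5 FPKM and were tested only through their subline values. MALAT1:38, among those below, was tested only through its parental values. Such selection favours the direction seen. MALAT1:32 and MALAT1:29 were also among the higher rows with an unadjusted p under 0.05. How reads were divided among the rows is not known, so the rows are not counted as separate measurements of MALAT1.

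MALAT1:33 and MALAT1:9 made up most of the MALAT1 sum in every library. MALAT1:33 had 912 and 705 FPKM in MDA-MB-231-P3 and 265 and 543 FPKM in MDA-MB-231. MALAT1:9 had 794 and 560 FPKM in MDA-MB-231-P3 and 258 and 246 FPKM in MDA-MB-231. Both rows were higher in each subline library than in each parental one, and the parental libraries agreed closely for MALAT1:9 but differed about as much as the lines for MALAT1:33. The log2 difference was 1.40 for MALAT1:9 (SE 0.34, limma adjusted p = 0.321) and 1.08 for MALAT1:33 (SE 0.48, limma adjusted p = 0.429). That of MALAT1:33 was 0.56 without MDA-MB-231 replicate 1. Of the net MALAT1 difference of 965 FPKM between the means, MALAT1:9 made up 44% and MALAT1:33 for 41.9%. Without MALAT1:33 the rest of the gene still summed to 1069 and 911 FPKM in the subline and 451 and 409 FPKM in the parent, which do not overlap.

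Behind them, MALAT1:8 had 198 and 99.8 FPKM in MDA-MB-231-P3 and 91.5 and 92.9 FPKM in MDA-MB-231. Its groups did not overlap, but the lower subline library was close to the parent, and the log2 difference was 0.61 (SE 0.44, limma adjusted p = 0.588). It was 0.11 without MDA-MB-231-P3 replicate 1 and 1.10 without MDA-MB-231-P3 replicate 2. MALAT1:37 had 33.6 and 54.5 FPKM in the subline and 39.6 and 39.3 FPKM in the parent, and MALAT1:43 had 8.42 and 6.67 FPKM in the subline and 5.33 and 6.88 FPKM in the parent. For both of these rows the lines overlapped, with log2 differences of 0.12 (SE 0.37) and 0.29 (SE 0.32). MALAT1:51 overlapped as well, at 0.286 and 0.529 FPKM in the subline and 0.841 and 0.433 FPKM in the parent.

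The widest contrasts were in minor rows. MALAT1:32 had 15.7 and 79.1 FPKM in MDA-MB-231-P3 and 0.121 and 0.232 FPKM in MDA-MB-231. It was low in both parental libraries and differed widely between the subline libraries, and its log2 difference was 5.74 (SE 0.84, limma adjusted p = 0.225, the smallest of the MALAT1 rows). MALAT1:36 had 0.532 and 6.19 FPKM in the subline and was listed near 0 in both parental libraries, and MALAT1:29 had 1.44 and 1.30 FPKM in the subline and was likewise listed near 0 in both parental libraries. In the other direction, MALAT1:24 had 8.94 and 5.04 FPKM in MDA-MB-231-P3 and 33.7 and 15.8 FPKM in MDA-MB-231, and its log2 difference was -1.71 (SE 0.53, limma adjusted p = 0.345). MALAT1:38 was listed near 0 in both subline libraries and at 18.4 and 0.903 FPKM in the parent. No other tested MALAT1 row had its subline values wholly under its parental ones.

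**Figure D3:**
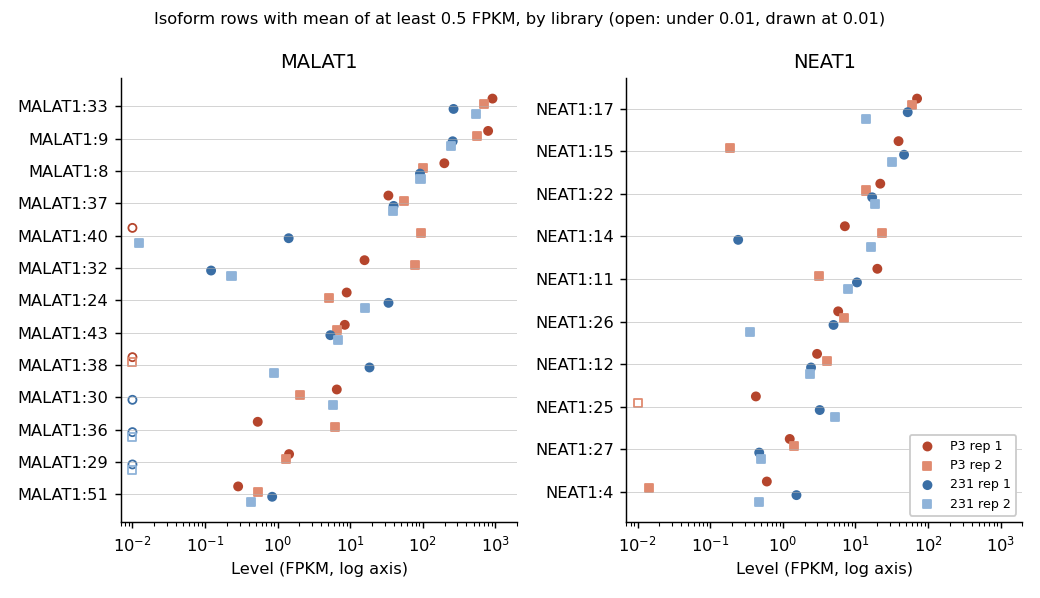
Level of each MALAT1 (left) and NEAT1 (right) isoform row with a mean of at least 0.5 FPKM, in FPKM on a log axis, 1 point per library, with values under 0.01 FPKM drawn as open symbols at 0.01. MALAT1:33 and MALAT1:9 lead in every library, and several minor rows differ widely between libraries of the same line, such as MALAT1:40 and NEAT1:15.

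As shares of the gene, the leading MALAT1 rows kept their place. MALAT1:33 was the most abundant row in every library, at 46.0% and 43.6% of the sum in MDA-MB-231-P3 and 37% and 57.1% in MDA-MB-231. The subline shares lay inside the range of the parental ones, and the means differed by -2.20 percentage points (two-sided exact permutation p = 1, where 0.33 is the smallest possible). Without MDA-MB-231 replicate 2 that difference was 7.83 percentage points. MALAT1:33 and MALAT1:9 together held 86.1% and 78.3% in the subline and 73.0% and 82.9% in the parent. Between 3 and 4 rows were enough for 90% of the sum in each library. MALAT1:32 held 0.795% and 4.90% in MDA-MB-231-P3 and 0.0169% and 0.0243% in MDA-MB-231, and MALAT1:24 held 0.451% and 0.312% in the subline and 4.70% and 1.66% in the parent.

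Whether the rows of a gene moved unequally was tested with limma's diffSplice, which compares each row's log2 difference with those of the other rows of its gene. It called 13 of 1074 genes, or 1.21%, and 5 when MDA-MB-231-P3 replicate 1 was left out. MALAT1 and NEAT1 were not among them (diffSplice adjusted p of 0.244 for MALAT1 over 13 rows and 0.607 for NEAT1 over 10 rows). The MALAT1 row that deviated most was MALAT1:32, by 5.20 above the other rows on the log2 scale (diffSplice adjusted p = 0.0877), followed by MALAT1:38 with a deviation of -4.66 (diffSplice adjusted p = 0.131). As given above, each of these rows was tested only through the line where it was higher, which favours the deviation seen. No row of either gene passed, where 0.762% of all rows did. MALAT1:33 deviated by 0.15 and MALAT1:9 by 0.50. With no filter on low values, MALAT1 passed (diffSplice adjusted p = 0.0370), in a fit that called 500 of 8288 genes, or 6.03%. The test takes all rows of a gene to have 1 common spread, which rows near 0 do not.

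**Figure D4:**
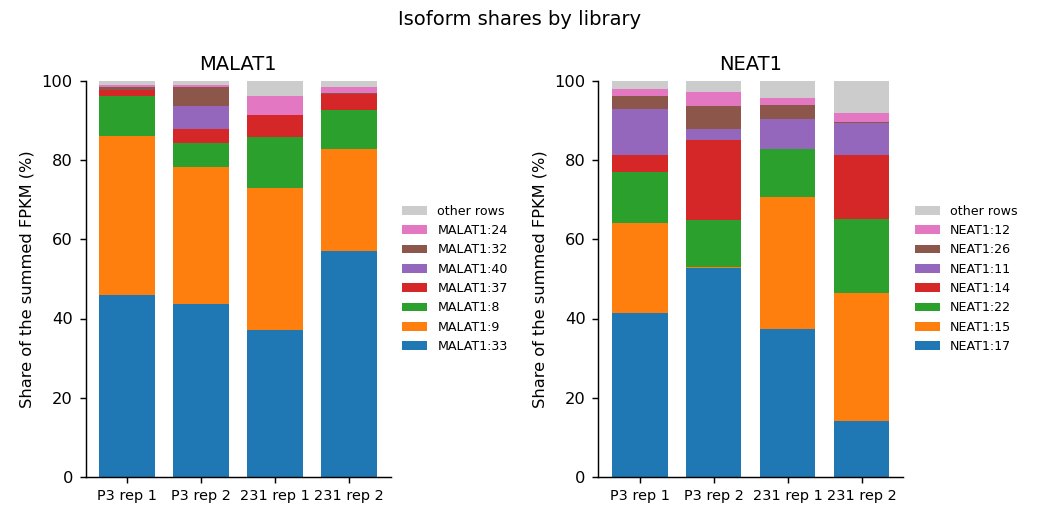
Share of the summed FPKM held by the 7 most abundant rows of MALAT1 (left) and NEAT1 (right) in percent, 1 bar per library, with MDA-MB-231-P3 left of MDA-MB-231 and all other rows in grey. The MALAT1 bars are led by MALAT1:33 at 37% to 57.1% and MALAT1:9, while the NEAT1 bars differ more from library to library.

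The make-up of NEAT1 differed between libraries of the same line. Of its 19 rows, 10 were tested and 9 lay under a mean of 0.5 FPKM, with at most 0.821 FPKM in any library. None of the 10 was called, as for all 8432 rows (0%), and 2 had an unadjusted p under 0.05, where 13.3% of all rows did. Of these 2, 1 was higher in the subline and 1 lower, beside 7.87% and 5.46% of all rows. Both subline libraries lay above both parental ones for 4 of the 10 and below them for 1, beside 27.3% and 20.7% of all rows. NEAT1:27, among those above, had a parental mean under 0.5 FPKM, and NEAT1:25, the row below, a subline mean under 0.5 FPKM. Each was tested only through the other line, which favours the direction seen. They were also the rows with an unadjusted p under 0.05. The differences ran from -2.91 to 1.94 with a median of 0.22, 5 positive and 5 negative. Between 4 and 6 NEAT1 rows were needed for 90% of the sum, and the number was 4 for both genes in MDA-MB-231-P3 replicate 2 and in MDA-MB-231 replicate 1.

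NEAT1:17 had 70.7 and 61.0 FPKM in MDA-MB-231-P3 and 52.5 and 14.1 FPKM in MDA-MB-231. The subline libraries were close to each other and above both parental ones, which lay far apart, and the log2 difference was 1.25 (SE 0.70, limma adjusted p = 0.508). It was 0.32 without MDA-MB-231 replicate 2 and 2.18 without MDA-MB-231 replicate 1. Its share of the NEAT1 sum was 41.3% and 52.7% in the subline and 37.3% and 14.1% in the parent, a mean difference of 21.3 percentage points (two-sided exact permutation p = 0.33, the smallest possible) that ran from 9.66 to 32.9 percentage points when single libraries were left out. NEAT1:17 led in 3 libraries, and NEAT1:15 led in MDA-MB-231 replicate 2.

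NEAT1:15 had 39.3 and 0.188 FPKM in MDA-MB-231-P3 and 46.8 and 32.4 FPKM in MDA-MB-231. A single subline library was low, and the log2 difference of -2.91 (SE 2.04, limma adjusted p = 0.582) became 0.013 without that library, MDA-MB-231-P3 replicate 2. NEAT1:14 had 7.16 and 23.2 FPKM in the subline and 0.243 and 16.2 FPKM in the parent, so that here a single parental library was low. NEAT1:22 was the steadiest of the abundant rows, at 22.0 and 13.98 FPKM in the subline and 17.0 and 18.5 FPKM in the parent, with a log2 difference of -0.016 (SE 0.36). NEAT1:11 overlapped, at 20.04 and 3.14 FPKM in the subline and 10.5 and 7.98 FPKM in the parent.

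The NEAT1 row of smallest adjusted p was NEAT1:25, with 0.425 and 0.00796 FPKM in MDA-MB-231-P3 and 3.22 and 5.22 FPKM in MDA-MB-231. It was the 1 row lower in both subline libraries, and its log2 difference was -2.75 (SE 0.46, limma adjusted p = 0.247). NEAT1:27 had 1.25 and 1.43 FPKM in the subline and 0.473 and 0.507 FPKM in the parent. Its libraries agreed closely within each line, and the log2 difference was 0.89 (SE 0.30, limma adjusted p = 0.363). NEAT1:26 had 5.79 and 6.96 FPKM in the subline and 4.99 and 0.350 FPKM in the parent, and NEAT1:12 had 2.96 and 4.02 FPKM in the subline and 2.45 and 2.35 FPKM in the parent. These rows too lay higher in both subline libraries, whereas NEAT1:4, at 0.602 and 0.0145 FPKM in the subline and 1.54 and 0.476 FPKM in the parent, overlapped.

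**Figure D5:**
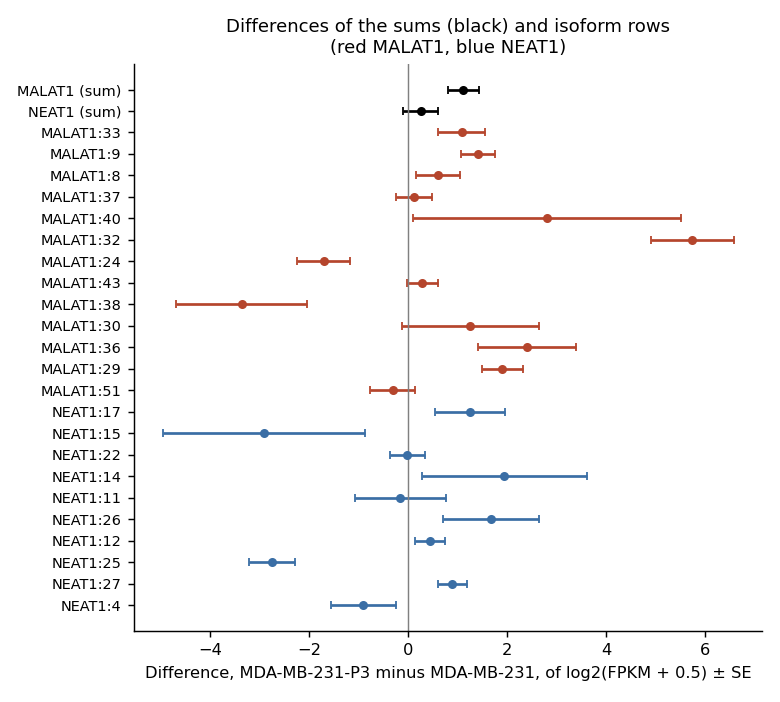
Difference between the lines, MDA-MB-231-P3 minus MDA-MB-231, of log2(FPKM + 0.5) with its SE for the MALAT1 and NEAT1 sums and each of the 23 tested isoform rows. The MALAT1 sum and its leading rows lie above 0 by more than their SE, and the wide bars of rows such as MALAT1:40 and NEAT1:15 come with values that differ widely within a line.

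MALAT1 has a pair of annotated starts in the RefSeq promoter table (GRCh38.p14), shown because annotated MALAT1 transcripts start near each. Where the transcripts behind the deposited rows begin is not known. MALAT1 was the 1 gene of the 2 that matched the table. Each sequence of 300 bases reaches 50 bases past the start on the plus strand, at chr11:65497488-65497787 and chr11:65498795-65499094, and each matched hg19 once, from 65264959 to 65265258 and from 65266266 to 65266565. Capitals mark matches on either strand to the motifs searched. These were the TATA box TATAAA, the CCAAT box, the GC box GGGCGG, the hypoxia element ACGTG, the E-box CACGTG, which contains the hypoxia element, and a pair of NF-kappaB motifs.
Upstream MALAT1 start: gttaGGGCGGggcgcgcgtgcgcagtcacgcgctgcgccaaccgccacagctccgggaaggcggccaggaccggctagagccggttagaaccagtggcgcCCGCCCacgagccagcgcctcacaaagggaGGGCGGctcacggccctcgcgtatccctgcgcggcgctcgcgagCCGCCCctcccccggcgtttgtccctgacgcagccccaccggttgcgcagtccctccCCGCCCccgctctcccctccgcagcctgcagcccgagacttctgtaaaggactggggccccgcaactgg
Downstream MALAT1 start: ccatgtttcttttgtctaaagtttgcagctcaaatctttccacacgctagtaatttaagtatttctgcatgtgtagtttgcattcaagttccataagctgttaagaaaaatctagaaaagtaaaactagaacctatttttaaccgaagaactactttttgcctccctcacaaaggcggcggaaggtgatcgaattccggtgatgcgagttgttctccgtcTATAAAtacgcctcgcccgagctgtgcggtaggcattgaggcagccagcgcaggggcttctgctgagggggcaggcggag
The upstream sequence held 73.7% G and C and GGGCGG, the GC box, 5 times over both strands. The downstream sequence held 46.0% G and C and TATAAA once. GGGCGG occurs in 45.0% and TATAAA in 11.5% of the 35116 promoters of this length in the table. The other motifs were in neither sequence. The CCAAT box occurs in 34.6% of promoters, the hypoxia element in 21.4%, the E-box in 7.26%, and the NF-kappaB motifs in 0.191% and 0.162%. Of the 66 annotated MALAT1 transcripts, 33 start within 50 bases of the downstream start and 4 within 50 bases of the upstream one. The remaining transcripts start near neither.

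Other lncRNAs of the table carry the symbol of a coding gene around the locus in their name. Of 24 such names with rows, 11 were tested and 0 were called in either direction, beside 0.0621% of all summed genes, with 4 positive and 7 negative differences and a median of -0.05, beside 0.09 over all tested genes. The most abundant were lnc-SIPA1-2, at 10.3 ± 0.831 FPKM in the subline and 12.2 ± 0.0197 FPKM in the parent, and lnc-LTBP3-9, at 6.03 ± 0.559 and 6.49 ± 2.56 FPKM (SD, n = 2 each). Both subline libraries lay above both parental ones for 1 of the 11, lnc-LTBP3-2, at 6.50 ± 1.17 FPKM in MDA-MB-231-P3 and 2.29 ± 0.192 FPKM in MDA-MB-231 (SD, n = 2 each), named here after its values were seen (limma adjusted p = 0.257), and below them for 3. Over all summed genes these shares were 28.9% above and 21.4% below. Among those below, lnc-TIGD3-5 had a mean of 0.457 FPKM in the subline and 1.04 FPKM in the parent. It passed the filter of 0.5 FPKM only through the parent, which favours the direction seen. TALAM1 had no row under that name, so its level could not be compared.

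Other lncRNAs listed as nuclear were compared by level. Where in the cell these RNAs lie was not measured, and not all of them need be confined to the nucleus. Of 9 listed, 5 were tested and 0 were called, beside 0.0621% of all summed genes, with 3 positive and 2 negative differences and a median of 0.66, beside 0.09 over all tested genes. Both subline libraries lay above both parental ones for 3 of the 5 and below them for 1, beside 28.9% and 21.4% of all summed genes. The most abundant were PVT1, the neighbour of MYC, at 46.5 ± 9.60 FPKM in the subline and 54.4 ± 5.62 FPKM in the parent, and FIRRE, an X-linked lncRNA that anchors chromatin, at 31.1 ± 1.82 and 44.7 ± 1.86 FPKM (SD, n = 2 each). The 3 with a positive difference, TUG1 and KCNQ1OT1 among them and named after their values were seen, did not overlap between the lines. TUG1 had 31.8 ± 1.95 FPKM in the subline and 17.7 ± 4.89 FPKM in the parent (SD, n = 2 each), and its log2 difference was 0.85 (SE 0.31, limma adjusted p = 0.322). KCNQ1OT1, an imprinted antisense lncRNA, had 1.88 ± 0.371 FPKM in the subline and 1.00 ± 0.204 FPKM in the parent (SD, n = 2 each), and LINC-PINT, a p53 target, had 38.0 ± 4.01 FPKM in the subline and 23.3 ± 6.75 FPKM in the parent (SD, n = 2 each).

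Of 6 hypoxia-linked lncRNAs 5 were tested, 0 were called, and 1 difference was positive, with a median of -0.25, beside 0.0621% called and a median of 0.09 over all tested genes. LUCAT1 had 15.8 ± 6.08 FPKM in the subline and 18.2 ± 1.10 FPKM in the parent, and HIF1A-AS2, antisense to HIF1A, had 3.93 ± 0.153 and 5.15 ± 1.53 FPKM (SD, n = 2 each). The positive difference was that of MIR210HG, the host gene of miR-210, named after its values were seen. It had 1.13 and 0.884 FPKM in the subline and 0.240 and 0.0573 FPKM in the parent. Both subline libraries were higher, and the log2 difference was 1.23 (SE 0.40, limma adjusted p = 0.304). Its parental mean was 0.149 FPKM, so it passed the filter of 0.5 FPKM only through the subline. Both subline libraries lay above both parental ones for 1 of the 5, MIR210HG, beside 28.9% of all summed genes. They lay below for 2, HIF1A-AS2 and H19, beside 21.4%. H19 had 0.373 ± 0.0860 FPKM in the subline and 0.688 ± 0.105 FPKM in the parent (SD, n = 2 each). With a subline mean under 0.5 FPKM, H19 passed the filter only through the parent. For MIR210HG and H19 such selection favours the direction seen. Of 5 p53-linked lncRNAs 4 were tested and 0 were called, beside 0.0621% of all summed genes. They had 2 positive and 2 negative differences and a median of 0.02, beside 0.09 over all tested genes. Both subline libraries lay above both parental ones for 1 of the 4, LINC-PINT, and below them for 1, TP53TG1, beside 28.9% and 21.4%. The most abundant members of this list, PVT1 and LINC-PINT, are also on the list of nuclear lncRNAs.

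By the distance between log2 profiles over the 4 libraries, each centred on its mean, the genes most like MALAT1 among the 612 others with a mean of at least 10 FPKM were lnc-PDZK1IP1-4 (0.097), lnc-KLF5-11 (0.13) and lnc-TFEC-13 (0.15). Of these, lnc-TFEC-13 had 80.8 and 57.3 FPKM in MDA-MB-231-P3 and 27.8 and 35.5 FPKM in MDA-MB-231. The genes most like NEAT1 were THAP9-AS1 (0.067), lnc-FCGR1B-11 (0.19) and lnc-SHB-4 (0.23), and THAP9-AS1 had 20.8 and 13.2 FPKM in the subline and 17.1 and 12.0 FPKM in the parent. The distance between MALAT1 and NEAT1 themselves was 1.09, which placed NEAT1 in position 166 from MALAT1.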

How the data were processed

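RNA of MDA-MB-231-P3 and MDA-MB-231 cells was sequenced in paired-end, strand-marked libraries of mRNA. The authors aligned reads to hg19 with HISAT2 and deposited FPKM values per lncRNA isoform, per the labels' protocols. StringTie is also named, per the submitters' processing notes. Not given in the sources used here are versions, the lncRNA annotation and how reads were assigned to isoforms. The split of a gene among its rows therefore could not be checked. Depth is unknown: FPKM are not counts, and the lowest values are far below what 1 read could give. Files per sample equalled the series table in all 4 libraries. None of 11 protein-coding cell type markers had a row, so the cell lines' identity was not checked.

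Rows were grouped by the name before the colon and summed. Rows or sums with a mean of at least 0.5 FPKM entered a limma 3.58.1 test (R 4.3.3) on log2(FPKM + 0.5) (intensity trend, two-sided, MDA-MB-231-P3 minus MDA-MB-231, Benjamini-Hochberg over all features, threshold 0.05), and isoform usage was tested with diffSplice, which assumes 1 common spread for the isoforms of a gene. Fold changes on this scale understate the change of low values. Scripts were tested on simulated data. Ratios and shares were tested by exact permutation over libraries. Named were all tested rows of both genes, called members or otherwise the 2 most abundant of each list, and the 3 nearest profiles. The genes and lists were chosen with earlier results of these data known. Alternatives were other pseudocounts, filters and scalings, no trend, the replicate number as a block, a minimum change of 1 in the call rule, the leading isoform in place of the sum, another denominator of shares, and each library left out. Sequences come from the hg19 genome and the RefSeq promoter table. Python 3.11.15, pandas 2.3.3 and matplotlib 3.10.9 were used for tables and plots.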

Additional observations from a re-analysis of the deposited data

How the results depend on the processing

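MALAT1 stayed higher in MDA-MB-231-P3 in every alternative run (log2 difference 0.91 to 1.32 without single libraries and 1.03 to 1.6 otherwise) and was called in none (limma adjusted p of 0.175 to 0.606). No row of either gene was called in any. Without single libraries the NEAT1 difference ran from -0.035 to 0.53, and it was 0.65 with a common sum and 1.25 for its leading isoform, uncalled. The MALAT1 to NEAT1 log2 ratio differed by -0.17 for the leading isoforms and by 0.42 to 1.32 without single libraries, and the MALAT1:33 share by -12.2 to 7.83 percentage points. Rows that changed sign without a library were MALAT1:30 (-0.57 to 3.07), MALAT1:37 (-0.23 to 0.46), MALAT1:40 (-0.99 to 6.6), NEAT1:11 (-1.41 to 1.09), NEAT1:14 (-0.31 to 4.18), NEAT1:15 (-5.84 to 0.013) and NEAT1:22 (-0.33 to 0.30). With a common sum NEAT1:11 was 0.22 and NEAT1:22 was 0.38, and NEAT1:22 was 0.076 after quantile normalization. Over the whole table, 6 isoforms passed with a minimum of 1 FPKM, against 0. Summed genes called, 4 as reported, were 0 with a pseudocount of 1, without the filter, without the trend or without any single library, and 2 after quantile normalization. MALAT1 isoform usage passed only without the filter (adjusted p = 0.0370). Genes with unequal usage, 13 of 1074 as reported, were 38 with a pseudocount of 0.1, 500 of 8288 with no filter (6.03%), and 5 to 17 when single libraries were left out, 5 being without MDA-MB-231-P3 replicate 1. Where a library was left out, the remaining one of its line is taken to vary as the other line does. For these changes the cause was not tested.

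The labels do not state whether a replicate number marks a shared culture. Deviations of same-numbered libraries correlated at 0.047 across isoforms and 0.078 across summed genes. With the replicate number as a block, 0 summed genes and 0 genes for isoform usage were called, against 4 and 13. Usage without the trend was not run, since diffSplice uses none.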

Other observations

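Some rows were high in 1 library of a line and near 0 in the other. MALAT1:40 had 95.6 FPKM in MDA-MB-231-P3 replicate 2, where it held 5.91% of the MALAT1 sum, and was listed near 0 in replicate 1, while the parental libraries had 1.42 and 0.0122 FPKM. MALAT1:30 had 6.54 and 2.03 FPKM in the subline and 0.00145 and 5.77 FPKM in the parent. The summed levels of MALAT1 differed within a line by at most 1.33-fold and those of NEAT1 by at most 1.48-fold. The residual SD of the log2 values was 0.25 for MALAT1 and 0.37 for NEAT1, beside a median of 0.37 over all tested genes.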
